A study of Homo sapiens with 6 samples.

Results

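Mitochondrial ribosomal protein genes are the nuclear genes for the protein parts of the mitochondrial ribosome. All genes whose array symbol begins with MRPL or MRPS followed by a digit were taken, which gave 74 of the 18417 named genes on the array. Of these, 73 encode a protein of the particle and 1, MRPS31P5, is a pseudogene. Of the 73, 50 belong to the large subunit and 23 to the small subunit. MRPS30 and MRPS18A carry the small-subunit prefix but sit in the large subunit, and are counted there. A further 4 genes of the rule, MRPL51, MRPS6, MRPS24 and MRPS28, were represented by a probe set paired with several symbols, so no value could be assigned to them alone. MRPS36, which has the name but belongs to another complex, was not analysed here.

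Expression was measured in HCT 116, an established human colorectal carcinoma line, grown in DMEM with serum. There were 3 arrays labelled siChe-1, from cells transiently transfected with duplex RNA against Che-1, and 3 labelled control, from cells given an siRNA against GFP, a protein these cells do not make. Both sets were taken 48 h after transfection. Che-1 is the protein encoded by AATF, a nucleolar factor that also binds the transcription machinery. The labels do not state that replicates were separate cultures, so p-values cover only the array-to-array spread, which may be technical. With 3 arrays a group, precision is limited. All values are log2 RMA intensities, and all differences subtract the mean of the control arrays from that of the siChe-1 arrays on that scale.

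The mitochondrial ribosome translates the few messages carried by mitochondrial DNA, which encode core subunits of the respiratory chain and of ATP synthase. Its RNA comes from the mitochondrial genome, while every one of its proteins is made in the cytosol and imported. Some of the proteins descend from the bacterial ribosome and others were added during the evolution of mitochondria, so the particle is richer in protein than its bacterial relative. Inherited defects in several of these genes cause combined deficiencies of the respiratory chain.

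AATF, the gene targeted by the siRNA, did not follow the labels. It read 8.53, 8.81 and 8.87 in the arrays labelled siChe-1, against 7.55, 7.75 and 7.55 in the arrays labelled control, so it was higher where the label says it was depleted (difference 1.12 ± 0.13, SE; limma adjusted p = 0.00122). An exact two-sided permutation test of AATF gave p = 0.1, and no smaller p is possible with 3 arrays against 3. Groups are therefore named by their labels throughout. Were the labels swapped, each sign below would be the opposite. Replicate 1 labelled siChe-1 stood apart from the other arrays of its group, with a Pearson correlation over genes of 0.984 and 0.986 to them, while those correlated at 0.996 with each other. Counts and medians of the members, their subunits and the lists of other mitochondrial and ribosomal genes are given with and without it, and a single gene's value without it is given for some genes only.

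The groups also differed in a set of 10 interferon-stimulated genes, all 10 lower in the arrays labelled siChe-1, where the median of the list lay between 4.04 and 4.31 by array, against 8.81 to 9.19 in the arrays labelled control. The median of 10 colon epithelium markers lay between 8.60 and 8.80 in the arrays labelled siChe-1, against 8.32 to 8.64 in the arrays labelled control. These markers were split, with 5 of the 10 differences below 0. The groups did not overlap for 3 lower and 2 higher markers, 50% of the list beside 24.0% of all genes. KRT19 was lower (-0.59, limma adjusted p = 0.0171) and ELF3 higher (0.67, limma adjusted p = 0.0191). The median of 7 leukocyte markers lay between 3.38 and 3.64 in the arrays labelled siChe-1, against 3.39 to 3.43 in those labelled control. That of 7 fibroblast markers lay between 4.11 and 4.36, against 3.88 to 4.10. These medians lay below the array median over all probe sets (4.95 to 5.05), so detection is unknown. The median difference of the fibroblast markers was 0.14 with all arrays and -0.0071 without siChe-1 replicate 1. The part of the interferon genes in the values below was not tested. In a bulk sample, fewer cells of a kind and less RNA per cell cannot be told apart.

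No mitochondrial ribosomal protein gene passed the test. Of the 74 members, none was higher and none was lower at a limma adjusted p under 0.05, where 3.72% of all genes passed, 1.19% higher and 2.52% lower. The smallest adjusted p of a member was 0.0730. At an unadjusted p under 0.05 there were 12 members, 11 of them lower and 1 higher, which is 16.2% of the members beside 17.7% of all genes, of which 9.77% were lower and 7.88% higher. The measured differences were small. By the probe set used for each member, none differed by as much as 1.5-fold, and the largest measured difference was 1.41-fold. A second probe set of MRPL36, described below, had a larger difference, of -0.84. The 95% confidence interval of the difference lay within 2-fold either way for 73 of the 74 members, as it did for 96.5% of all genes, and within 1.5-fold either way for 56, which is 75.7% of the members beside 71.1% of all genes. The exception to the 2-fold bound was MRPL49.

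The differences leaned to one side. Of the 74 members, 50 had a difference below 0, which is 67.6%, beside 49.1% of all genes. The median difference over the members was -0.07, beside a median of 0.0051 over all genes. The members were bright, and 70 of the 74 had a mean above that of the median gene. With the dimmest 40% of genes left out, the median was -0.02 over the genes kept and -0.07 over the 73 members kept. The groups did not overlap for 18 members, 16 of them lower and 2 higher. This made 24.3% of the members, beside 24.0% of all genes. For lower genes alone it was 21.6% beside 13.3%, and over all genes 10.6% were apart and higher. These counts describe the list and are not a test of it.

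**Figure D1:**
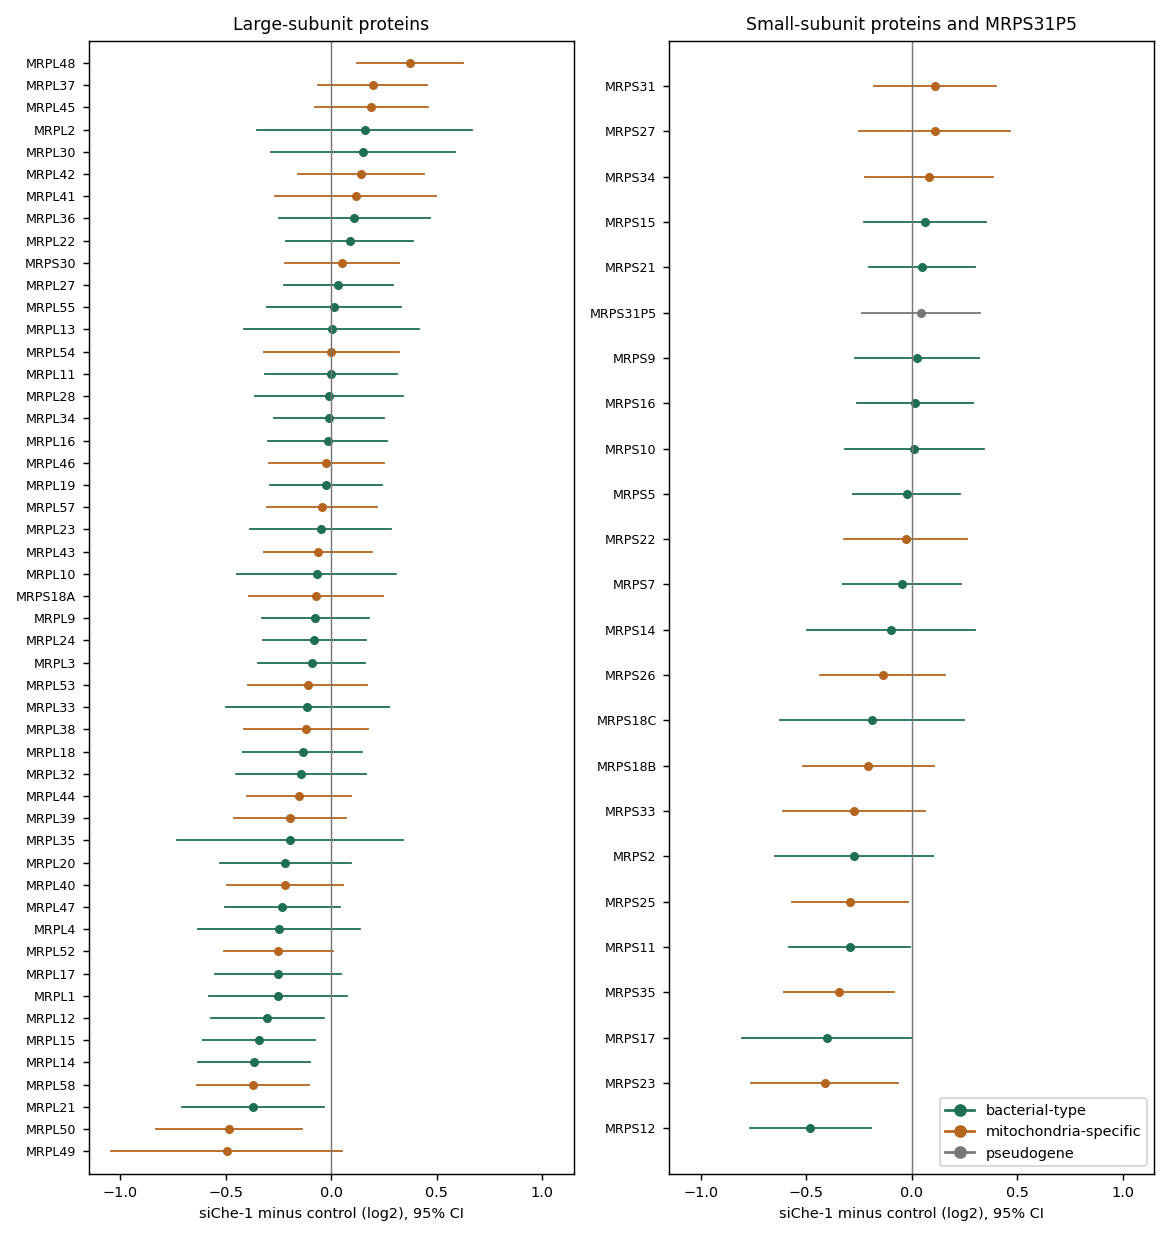
Difference of each of the 74 members (siChe-1 label minus control label, log2) with its 95% confidence interval from limma, large-subunit proteins on the left and small-subunit proteins with the pseudogene MRPS31P5 on the right, coloured by bacterial or mitochondrial origin. Most points lie left of 0, the largest difference is 1.41-fold, and the interval of MRPL49 alone reaches past 2-fold.

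By array, the lean was small. The median over the members of the value minus each gene's own mean was -0.04, -0.10 and -0.05 in siChe-1 replicates 1, 2 and 3, against 0.03, 0.12 and 0.0007 in control replicates 1, 2 and 3. The 3 arrays labelled siChe-1 thus lay below the 3 labelled control, though by little. Control replicate 2 held the highest value of 26 members, and siChe-1 replicate 2 the lowest value of 27. Replicate 1 labelled siChe-1 was at an extreme in both directions, with the highest value of 16 members and the lowest of 18.

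**Figure D2:**
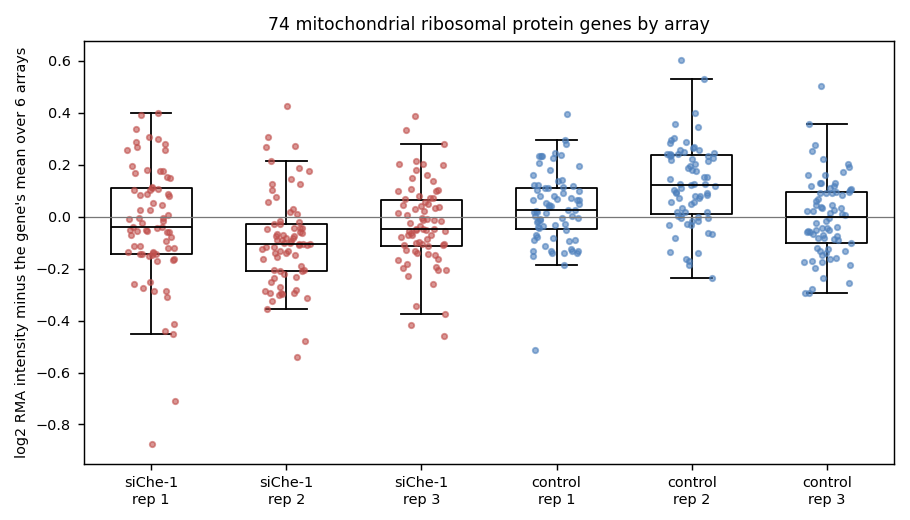
Values of the 74 members in each array, each shown minus the gene's mean over the 6 arrays (log2), with a box for the median and quartiles and whiskers to 1.5 times the box height. The medians of the arrays labelled siChe-1 lie between -0.10 and -0.04 and those of the arrays labelled control between 0.0007 and 0.12, with wide overlap of the points.

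The large subunit joins amino acids at its peptidyl transferase centre and lets the chain out through its exit tunnel. Of its 50 measured proteins, none passed by limma, 6 were lower and 1 was higher at an unadjusted p under 0.05, 35 had a difference below 0 and the median was -0.07. The 30 of bacterial type had a median of -0.08 and the 20 specific to mitochondria a median of -0.07. When siChe-1 replicate 1 was left out, the subunit had a median of -0.10 (bacterial type -0.11, specific to mitochondria -0.05), with 38 differences below 0. The groups did not overlap for 12 lower and 2 higher members, which is 28% of the subunit beside 24.0% of all genes, and for lower members 24% beside 13.3%. The members at an unadjusted p under 0.05 made 14% of the subunit beside 17.7% of all genes.

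Among the bacterial-type proteins, MRPL14 (protein uL14m) lies on the face that meets the small subunit and is the docking site of the assembly factor MALSU1. It read 7.95, 7.77 and 7.74 in the arrays labelled siChe-1, against 8.23, 8.23 and 8.10 in the arrays labelled control. The groups did not overlap, and the difference was -0.37 ± 0.12 (SE, limma adjusted p = 0.130). MRPL12 belongs to the flexible stalk that recruits translation factors. It read 8.85, 8.65 and 8.63 in the arrays labelled siChe-1, against 8.94, 9.11 and 8.99 in the arrays labelled control. All 3 values lay below those labelled control, with a difference of -0.30 (limma adjusted p = 0.223) and -0.37 without siChe-1 replicate 1. MRPL21, another protein of bacterial type, read 7.71, 7.14 and 7.45 in the arrays labelled siChe-1, against 7.82, 7.74 and 7.84 in the arrays labelled control. The groups did not overlap, though replicate 1 labelled siChe-1 came close to control replicate 2, and the difference was -0.37 (limma adjusted p = 0.233).

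MRPL3 and MRPL2, a pair of proteins near the peptidyl transferase centre, had differences of -0.09 and 0.16, each with an interval that included 0. MRPL3, in which inherited mutations cause disease, read 10.02 ± 0.06 in the arrays labelled siChe-1 and 10.12 ± 0.08 in the arrays labelled control (SD, n = 3 each). Its interval of the difference ran from -0.35 to 0.16. MRPL2 varied widely in both groups, at 8.86, 9.55 and 9.19 in the arrays labelled siChe-1, against 8.61, 9.04 and 9.48 in the arrays labelled control. The groups overlapped throughout, and its interval ran from -0.35 to 0.67. MRPL13 read near 5 in both groups, 5.01 ± 0.35 in the arrays labelled siChe-1 and 5.01 ± 0.23 in the arrays labelled control (SD, n = 3 each). The median of an array over all probe sets was between 4.95 and 5.05, and the table has no detection calls, so the files do not show whether MRPL13 was detected.

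Among the large-subunit proteins specific to mitochondria were the lowest and the highest difference of all members. MRPL49 read 7.29, 8.31 and 8.15 in the arrays labelled siChe-1, against 8.15, 8.41 and 8.67 in the arrays labelled control. Its measured 1.41-fold difference (-0.49 ± 0.25, SE, limma adjusted p = 0.338) rested on siChe-1 replicate 1, which lay 0.94 below the mean of the other 2 arrays of its group. Without that array the difference was -0.18. MRPL50 read 8.20, 8.49 and 8.54 in the arrays labelled siChe-1, against 8.72, 9.18 and 8.78 in the arrays labelled control. There was no overlap, and the difference was -0.48 (limma adjusted p = 0.129) and -0.38 without siChe-1 replicate 1.

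MRPL48 was the one member with a difference above 0 at an unadjusted p under 0.05. It read 7.23, 7.24 and 7.25 in the arrays labelled siChe-1, against 6.92, 6.91 and 6.75 in the arrays labelled control. The 3 values labelled siChe-1 were nearly alike and all above those labelled control, a 1.30-fold difference (0.38 ± 0.11, SE, limma adjusted p = 0.104). MRPL37 was the other member whose groups did not overlap upward, at 9.72, 9.65 and 9.64 in the arrays labelled siChe-1, against 9.44, 9.40 and 9.59 in the arrays labelled control (difference 0.20, limma adjusted p = 0.425). MRPL45, which tethers the tunnel exit to the inner membrane, read 10.88 ± 0.04 in the arrays labelled siChe-1 and 10.69 ± 0.14 in the arrays labelled control (SD, n = 3 each, difference 0.19, limma adjusted p = 0.463).

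MRPL58, also called ICT1, is a peptidyl-tRNA hydrolase that became a fixed part of the large subunit and can free stalled chains. It read 8.46, 8.23 and 8.32 in the arrays labelled siChe-1, against 8.64, 8.79 and 8.68 in the arrays labelled control. Here too the groups were apart, with a difference of -0.37 ± 0.12 (SE, limma adjusted p = 0.130). MRPL44, a protein related to ribonuclease III in which mutations cause cardiomyopathy, read 6.60 ± 0.05 in the arrays labelled siChe-1 and 6.75 ± 0.05 in the arrays labelled control (SD, n = 3 each). Its groups did not overlap either, but the difference was -0.15 (limma adjusted p = 0.540). The differences of the MRPS-named large-subunit proteins were 0.05 for MRPS30 (interval -0.22 to 0.32) and -0.07 for MRPS18A (interval -0.39 to 0.25), and neither passed.

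The small subunit reads the codons. Of its 23 measured proteins none passed by limma, 5 were lower at an unadjusted p under 0.05, 15 had a difference below 0 and the median was -0.10. The 13 of bacterial type had a median of -0.05 and the 10 specific to mitochondria a median of -0.17. Left without siChe-1 replicate 1, the subunit had a median of -0.05 (bacterial type -0.03, specific to mitochondria -0.18), with 16 differences below 0. The groups did not overlap for 4 members, all lower, which is 17.4% of the subunit beside 24.0% of all genes, of which 13.3% were lower. The members at an unadjusted p under 0.05 made 21.7% of the subunit beside 17.7% of all genes.

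MRPS12 (uS12m) lies at the decoding centre, and its homologue in Escherichia coli is the protein altered in streptomycin-resistant strains. It read 7.25, 7.22 and 6.90 in the arrays labelled siChe-1, against 7.60, 7.60 and 7.62 in the arrays labelled control. The 3 values labelled control were nearly alike and all above those labelled siChe-1, a 1.40-fold difference (-0.48 ± 0.13, SE, limma adjusted p = 0.0730), the nearest of all members to the threshold. MRPS2 (uS2m), in which mutations cause a respiratory chain deficiency, read 8.71, 8.16 and 8.08 in the arrays labelled siChe-1, against 8.52, 8.69 and 8.55 in the arrays labelled control. Replicate 1 lay above all 3 arrays labelled control and the other 2 below them, and the difference was -0.28 (limma adjusted p = 0.448).

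MRPS23, a protein specific to mitochondria, read 7.32, 7.17 and 7.34 in the arrays labelled siChe-1, against 7.88, 7.84 and 7.35 in the arrays labelled control. Its groups did not overlap, but siChe-1 replicate 3 and control replicate 3 were nearly alike, and the difference was -0.41 (limma adjusted p = 0.193) and -0.43 without siChe-1 replicate 1. Other disease genes of this subunit showed differences near 0: -0.05 for MRPS7 (interval -0.33 to 0.23), 0.01 for MRPS16 (-0.26 to 0.29), -0.03 for MRPS22 (-0.32 to 0.26) and 0.08 for MRPS34 (-0.22 to 0.39). None of these 4 members passed, and the groups of each overlapped. MRPS15, at 10.11 ± 0.20 in the arrays labelled siChe-1 and 10.05 ± 0.04 in the arrays labelled control (SD, n = 3 each), differed by 0.06. For MRPS18C, as for MRPL13, detection is unknown, at 4.83 ± 0.39 in the arrays labelled siChe-1 and 5.02 ± 0.21 in the arrays labelled control (SD, n = 3 each). The pseudogene MRPS31P5 differed by 0.04.

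Leaving out siChe-1 replicate 1 changed the count. Without it 5 of the 74 members were lower and none was higher at a limma adjusted p under 0.05, which is 6.76% of the members, while 8.50% of all genes passed, 4.48% lower and 4.01% higher. The share of members that passed was thus near that of all genes. The 5 were MRPS12 (-0.54, adjusted p = 0.0240), MRPS2 (-0.47, adjusted p = 0.0290), MRPL21 (-0.51, adjusted p = 0.0337), MRPL14 (-0.43, adjusted p = 0.0379) and MRPL58 (-0.43, adjusted p = 0.0397), all by limma. They were 1.35-fold to 1.46-fold lower in the arrays labelled siChe-1. In all 5, replicate 1 was the highest of the arrays labelled siChe-1, by 0.19 to 0.59 above the mean of the other 2. None of the 5 passed when any other single array was left out. Limma array weights gave siChe-1 replicate 1 the lowest weight (0.220) and siChe-1 replicate 3 the highest (3.38), with 0.957 for siChe-1 replicate 2. The weighted mean of the siChe-1 group thus rested mostly on replicate 3. With these weights 11 members were lower and 1, MRPL48, was higher, which is 16.2% of the members beside 15.6% of all genes (8.24% lower).

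**Figure D3:**
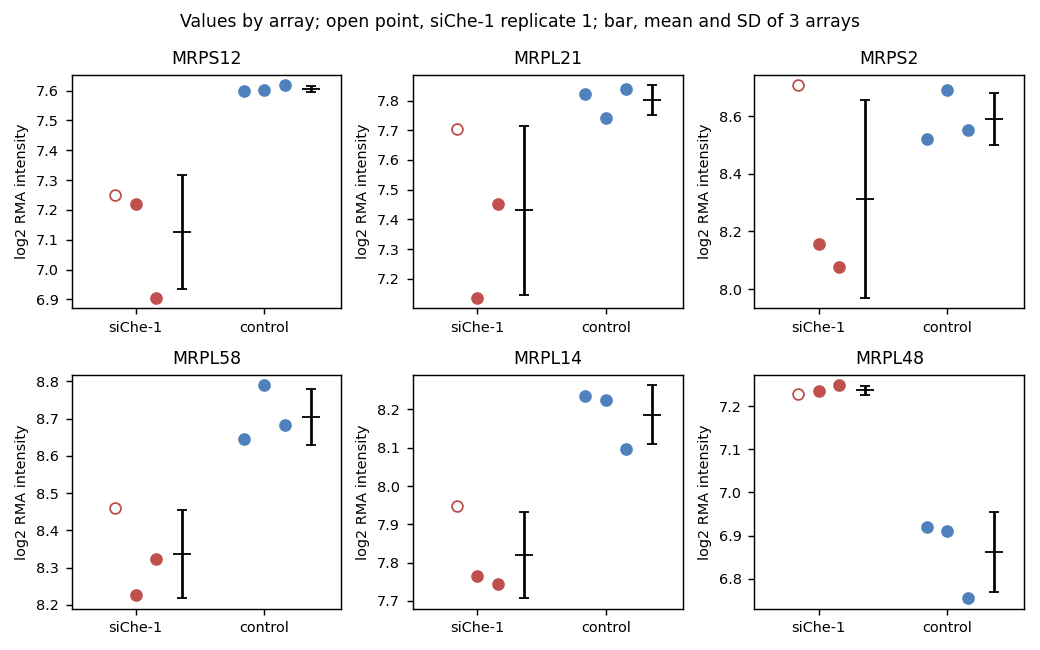
Log2 RMA intensity of the 5 members that were lower without siChe-1 replicate 1, and of MRPL48, in each array, with the mean and SD of 3 arrays beside each group and siChe-1 replicate 1 as an open point. The vertical axes do not start at 0 and differ between panels. The open point is the highest of its group for the 5 lower genes, and for MRPS2 it lies above all arrays labelled control, at 8.71.

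The array labelled siChe-1 replicate 1 moved members both ways. It lay above both other arrays of its group for 34 members, below both for 26 and between them for 14. Its gap to the mean of the other 2 was largest downward for MRPL49 (-0.94), MRPL35 (-0.92) and MRPL30 (-0.74) and upward for MRPS2 (0.59). It differed by over 0.3 from that mean in 21 members, a gap that the other 5 arrays showed in 7 to 13 members. The median difference over the members was -0.09 without it, 54 of 74 differences were below 0, and 14 members changed sign. MRPL35, a large-subunit protein of bacterial type, read 6.46, 7.20 and 7.56 in the arrays labelled siChe-1, against 7.28, 7.46 and 7.07 in the arrays labelled control, and its difference was -0.19 with the array and 0.11 without it. MRPL30 read 7.48, 8.20 and 8.23 in the arrays labelled siChe-1, against 7.76, 7.97 and 7.72 in the arrays labelled control, and its difference was 0.15 with the array and 0.40 without it (limma adjusted p = 0.0689). MRPL35 and MRPL30 were chosen after their values were seen.

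**Figure D4:**
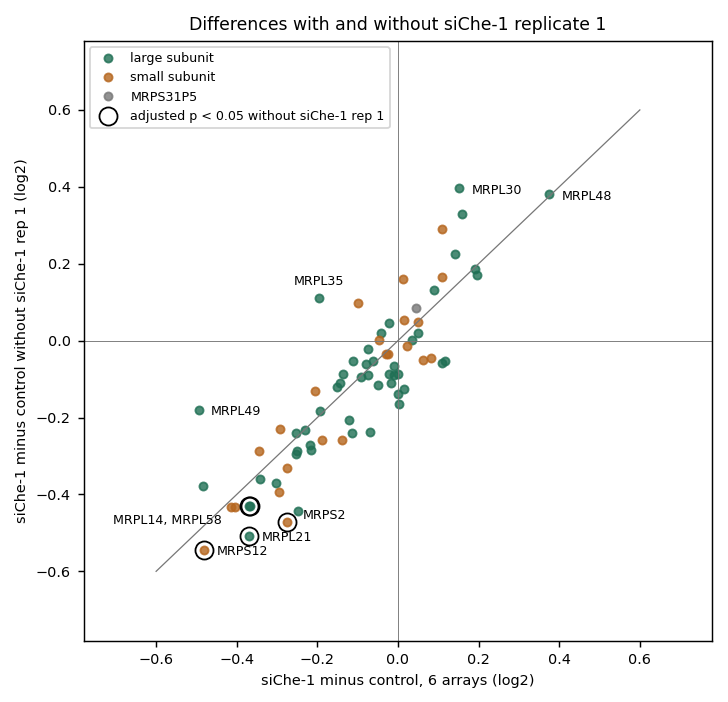
Difference of each member (log2, siChe-1 label minus control label) from all 6 arrays on the horizontal axis and without siChe-1 replicate 1 on the vertical axis, with the line of equal values. The 5 circled members passed without that array; MRPL49 lies well above the line at -0.49 against -0.18, and MRPL48 lies on it at 0.38.

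The start regions of 4 of the 5 members that were lower without siChe-1 replicate 1, and of MRPL48, are shown because the first 4 passed without that array and MRPL48 had the highest difference with all arrays. They are the 200 bases before the first start listed in RefSeq (GRCh38.p14), 5′ to 3′ on the gene's own strand, with capitals for matches to 4 motifs searched on both strands. The motifs were the ETS core CCGGAAG, which GABP binds, TGCGCA, the core of the NRF1 site, the E-box CACGTG of MYC, and CCAAT. GABP and NRF1 are known regulators of nuclear genes for mitochondria.
MRPS12, chr19:38930744-38930943, + strand: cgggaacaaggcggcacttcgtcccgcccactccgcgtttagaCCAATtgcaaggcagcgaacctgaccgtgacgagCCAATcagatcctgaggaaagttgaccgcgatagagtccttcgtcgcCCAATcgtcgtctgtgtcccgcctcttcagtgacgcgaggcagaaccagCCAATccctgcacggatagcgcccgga
MRPS2, chr9:135500482-135500681, + strand: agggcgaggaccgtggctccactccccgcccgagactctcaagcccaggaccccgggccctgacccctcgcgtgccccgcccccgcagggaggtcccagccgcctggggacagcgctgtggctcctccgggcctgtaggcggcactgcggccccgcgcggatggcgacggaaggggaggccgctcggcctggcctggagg
MRPL58, chr17:75012470-75012669, + strand: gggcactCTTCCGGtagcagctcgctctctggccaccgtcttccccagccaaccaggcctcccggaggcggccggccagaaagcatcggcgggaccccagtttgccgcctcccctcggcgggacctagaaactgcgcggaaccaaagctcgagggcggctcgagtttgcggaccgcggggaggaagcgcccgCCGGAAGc
MRPL14, chr6:44127309-44127508, - strand: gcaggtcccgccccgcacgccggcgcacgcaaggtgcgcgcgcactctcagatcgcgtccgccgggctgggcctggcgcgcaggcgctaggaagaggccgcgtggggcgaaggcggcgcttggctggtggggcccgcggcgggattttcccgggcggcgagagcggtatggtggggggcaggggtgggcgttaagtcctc
MRPL48, chr11:73787674-73787873, + strand: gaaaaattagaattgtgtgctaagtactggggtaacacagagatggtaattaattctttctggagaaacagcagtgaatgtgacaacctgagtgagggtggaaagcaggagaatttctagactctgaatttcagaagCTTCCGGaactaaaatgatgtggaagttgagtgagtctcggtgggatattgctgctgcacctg
The windows differed in these letters. MRPS12 held 4 CCAAT matches and no other, MRPL58 held 2 ETS matches, MRPL48 held 1, and those of MRPS2 and MRPL14 held none of the 4 motifs. RefSeq lists 2 starts for MRPS12 and for MRPS2 and 3 for MRPL14, so another start has another window. A match is a description of the letters only.

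A promoter was matched for 66 members. The ETS core was in the window of 20 of them, or 30.3%, beside 8.06% of all 27305 promoters of the table and 11.1% of the 14239 promoters of genes tested here. TGCGCA was in 18.2% of the members' windows, beside 6.35% of all promoters and 8.32% of those of tested genes. The E-box was in 7.58%, beside 5.62% and 6.89%, and CCAAT in 22.7%, beside 28.9% and 30.4%. In the 66 windows, matches to different motifs overlapped in 0.

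Some members have a neighbour that starts nearby and is transcribed the other way. In RefSeq, 24 of the 66 members with a matched promoter had such a gene starting within 1000 bases upstream. The share among other genes was not counted. Of these neighbours, 18 had a named probe set. No neighbour passed in either direction by limma, with or without siChe-1 replicate 1. At an unadjusted p under 0.05 with all arrays 2 of the 18 were lower, where 9.77% of all genes were lower. The median difference of the 18 was -0.09. The 18 include the members MRPS11 and MRPL46, each the neighbour of the other, and MRPS11 was among the 2 lower ones. SARS2, which encodes the mitochondrial seryl-tRNA synthetase, starts 181 bases from a start of MRPS12. SARS2 differed by 0.05 with all arrays and -0.03 without siChe-1 replicate 1, where MRPS12 differed by -0.48 and -0.54. MRPS11 and MRPL46 start 320 bases apart, and their differences were -0.30 (limma adjusted p = 0.271) and -0.02 (0.951). MRPL30 and MITD1 start 126 bases apart and had differences of 0.15 and -0.51, with limma adjusted p = 0.0940 for MITD1. These neighbours were named after their values were seen, and the difference within a pair was not tested.

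Most members had a single named probe set, and 3 had more. The further probe sets of MRPL20 and MRPS18B had the same values as the ones used, and the further probe set of MRPL36 did not. The one used for MRPL36, a small zinc-binding protein of bacterial type, read 10.28, 9.81 and 9.75 in the arrays labelled siChe-1, against 9.75, 9.76 and 10.00 in the arrays labelled control. The other read 8.26, 7.63 and 8.10 in the arrays labelled siChe-1, against 9.07, 8.75 and 8.68 in the arrays labelled control. The first pair of groups overlapped and differed by 0.11, and the second did not overlap and differed by -0.84 ± 0.19 (SE, limma adjusted p = 0.109 over all rows of the table). Which of them measures the MRPL36 message was not tested, so its difference is uncertain. Of the probe sets with several symbols, the one for MRPS28 and TPD52 differed by -0.32 (limma adjusted p = 0.285 over all rows) and those for MRPL51, MRPS6 and MRPS24 by -0.04, 0.08 and -0.10.

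Other genes of mitochondrial translation gave few calls with all arrays. Over all genes, 3.72% passed with all arrays and 8.50% without siChe-1 replicate 1. Of the 4 measured mitoribosome proteins with other names none passed by limma. At an unadjusted p under 0.05, 1 was lower, 25% of the list beside 17.7% of all genes. The nearest was DAP3, a GTP-binding protein of the small subunit, at 8.77, 8.82 and 9.02 in the arrays labelled siChe-1, against 9.21, 9.23 and 9.09 in the arrays labelled control, with groups that did not overlap (difference -0.31, limma adjusted p = 0.220). The next was GADD45GIP1, a protein of the large subunit, at -0.07. The median of the 4 was -0.04 with all arrays and -0.17 without siChe-1 replicate 1, where again none passed. Of 15 mitochondrial translation factors none passed by limma, and the median was -0.03. At an unadjusted p under 0.05, 2 were lower, 13.3% of the list beside 17.7% of all genes. The nearest with all arrays were GFM1, an elongation factor, at -0.55 (limma adjusted p = 0.128) and TACO1, an activator of COX1 translation, at -0.35 (0.223). Without siChe-1 replicate 1, TACO1 was lower (limma adjusted p = 0.0249), 7 of the 15 differences were below 0 and the median was 0.0015.

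Of 27 mitoribosome assembly factors, 26 did not pass and 1 was lower. The median was -0.17 and 21 differences were below 0, or 77.8%, beside 49.1% of all genes. The median became -0.06 and the count 17 when siChe-1 replicate 1 was left out. The lower gene was MRM1, a methyltransferase of the large mitochondrial rRNA, at 6.39, 6.53 and 6.41 in the arrays labelled siChe-1, against 6.91, 7.11 and 6.97 in the arrays labelled control, 1.47-fold lower (limma adjusted p = 0.0317). At an unadjusted p under 0.05 with all arrays, 6 assembly factors were lower and 1 was higher, 25.9% of the list beside 17.7% of all genes. Without siChe-1 replicate 1, 5 assembly factors passed as lower and 1 as higher. This made 22.2% of the list beside 8.50% of all genes, and for lower genes alone 18.5% beside 4.48%. The lower ones were MRM1, MTERF3, DDX28, MRM3 and FASTKD2, and the higher one was METTL15, a methyltransferase of the small mitochondrial rRNA, with a mean of 7.99 in the siChe-1 arrays left, against 6.99 in the control arrays (limma adjusted p = 0.00905). METTL15 read 7.02, 8.01 and 7.98 in the arrays labelled siChe-1, against 6.69, 6.89 and 7.39 in the arrays labelled control, and did not pass with all arrays (0.68, limma adjusted p = 0.215).

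Of 10 genes of mitochondrial DNA transcription and replication, 1 was lower and 9 did not pass. All 10 differences were below 0 (median -0.26), beside 49.1% of all genes. Without siChe-1 replicate 1, 7 of the 10 were below 0 (median -0.24). The lower gene was TEFM, the elongation factor of mitochondrial transcription, at 5.22, 5.49 and 5.31 in the arrays labelled siChe-1, against 6.13, 5.97 and 6.02 in the arrays labelled control, 1.62-fold lower (limma adjusted p = 0.0121). TEFM was close to the array median in the siChe-1 group and its detection is unknown, so the size of the difference is uncertain. At an unadjusted p under 0.05, 3 of the 10 were lower, 30% of the list beside 17.7% of all genes. The groups did not overlap for 5 of the 10, all lower. This made 50% beside 24.0% of all genes, of which 13.3% were lower. Among 9 regulators of nuclear genes for mitochondria, 7 did not pass and 2 were lower, with a median of -0.13 and, without siChe-1 replicate 1, of -0.10. Only these 2 were at an unadjusted p under 0.05, 22.2% of the list beside 17.7% of all genes. PPRC1, a coactivator related to PGC-1, read 8.48, 8.30 and 8.25 in the arrays labelled siChe-1, against 9.11, 8.90 and 9.15 in the arrays labelled control, 1.64-fold lower (limma adjusted p = 0.0136). MYC, which activates many genes for ribosomes and mitochondria, read 10.59, 10.41 and 10.25 in the arrays labelled siChe-1, against 10.99, 10.87 and 11.06 in the arrays labelled control, 1.47-fold lower (limma adjusted p = 0.0464). Without siChe-1 replicate 1 all 4 calls remained, of MRM1 (limma adjusted p = 0.0217), TEFM (0.00899), PPRC1 (0.00356) and MYC (0.00923), and among the regulators GABPA, a subunit of GABP, was higher (0.0372). Without that array, 10% of the transcription and replication genes and 33.3% of the regulators passed, beside 8.50% of all genes. With all arrays, 2.52% of all genes were lower. None of the 4 calls held in every leave-out of an array: of the 65 genes of these 5 lists, none was lower once siChe-1 replicate 3, control replicate 1 or control replicate 3 was left out, and 2 were lower once replicate 2 of either group was.

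**Figure D5:**
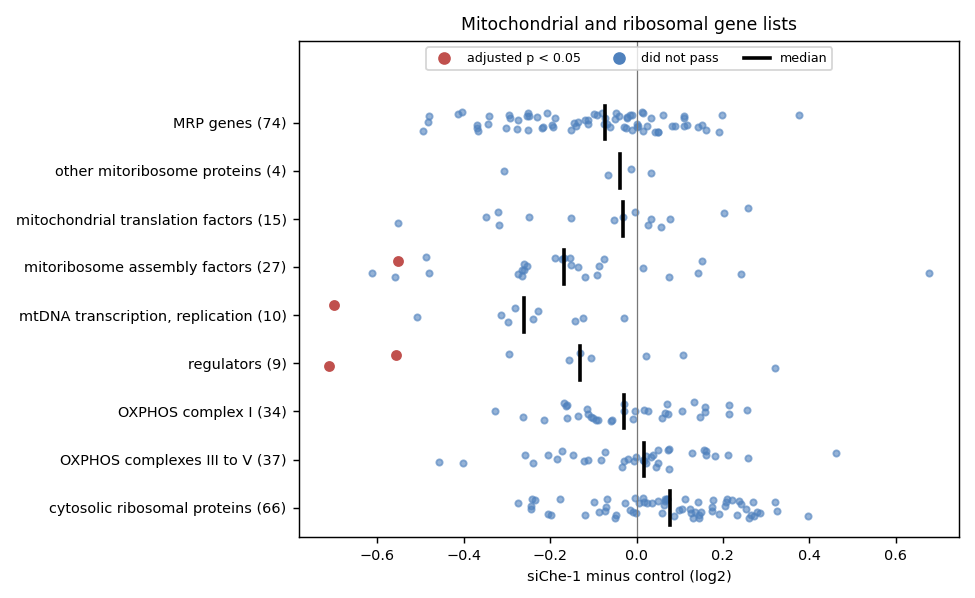
Difference of each gene (log2, siChe-1 label minus control label) in the members and in 8 other lists, with the number of measured genes in brackets, a black bar at the median and red points for genes that passed. Of these lists, genes passed in 3, all to the left of 0, and the median of the members was -0.07.

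The subunits of complexes I and III to V that are made in the cytosol, and the proteins of the cytosolic ribosome, were set beside the members. These lists were taken by symbol. The cytosolic one includes genes only named like ribosomal proteins, such as RPS27L, RPL7L1, RPL26L1 and RPL22L1, so its counts are over symbols. The cytosolic list thus also holds dim genes such as RPL39L, RPS4Y1, RPS4Y2 and RPL10L, with group means between 2.52 and 4.09. Those lie below the array median over all probe sets (4.95 to 5.05), so their detection is unknown. None of 34 complex I genes passed by limma (median -0.03), none was at an unadjusted p under 0.05, and the nearest were NDUFS4 (-0.33, limma adjusted p = 0.315) and NDUFA6 (-0.26, 0.332). None of 37 genes of complexes III to V passed by limma (median 0.02), with 1 higher and 2 lower at an unadjusted p under 0.05, the nearest being UQCRC2, a core subunit of complex III, at 0.46 (limma adjusted p = 0.119) and ATP5F1EP2, a pseudogene that its symbol brought into the list, at -0.46 (0.120). Without siChe-1 replicate 1, UQCRC2 was higher (limma adjusted p = 0.0145), 22 of the 37 differences were below 0 and the median was -0.03, while no complex I gene passed (median -0.06). None of 66 cytosolic ribosomal protein genes passed, with a median of 0.08 and 21 differences below 0, beside a median of -0.07 and 50 of 74 below 0 for the mitochondrial ones. The nearest were RPL17 (0.33, limma adjusted p = 0.174) and RPL3 (0.29, 0.230). None of the 66 passed without siChe-1 replicate 1 either, where 27 were below 0 and the median was 0.06. At an unadjusted p under 0.05 there were 4 cytosolic genes, all higher, which is 6.06% of them, where 7.88% of all genes were higher. There were 12 mitochondrial ones, 11 of them lower, which is 16.2% of the members beside 17.7% of all genes (9.77% lower). The difference between these lists was not tested.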

How the data were processed

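Total RNA of 6 HCT 116 samples was hybridised to Affymetrix whole-transcript arrays, 3 for each label. The deposited table is on the log2 scale. The submitters' processing notes name RMA and Affymetrix Expression Console for its making, without versions. RMA equalises the arrays' distributions, so a shift of all genes together would not be seen. Of 33297 probe sets, 19460 had 1 symbol in the platform annotation, 1754 had several and 12083 were not listed. Probe sets with 1 symbol were used, and for a gene with several the one with the highest mean, which left 18417 genes.

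Differences were fitted with limma 3.58.1 (lmFit and eBayes, R 4.3.3) on all genes, with Benjamini-Hochberg adjustment over all of them and a threshold of 0.05. The procedure was also run on simulated data, with independent noise for each gene and planted changes larger than any member's difference. It therefore does not show how well differences of the members' size would be found. The fit was repeated without each array and under the settings of the closing section.

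Members, gene lists and tests were chosen with earlier results of these data known. Members named in the text are any that passed; the 4 highest and 4 lowest differences among those that did not; MRPL3, MRPL12, MRPL44, MRPS2, MRPS7, MRPS16, MRPS22 and MRPS34 as disease genes; the 2 brightest and 2 dimmest; those that passed without siChe-1 replicate 1; and MRPS30, MRPS18A, MRPS36 and MRPL58. Of each other list, the genes that passed are named, or the 2 with the smallest p. Others were chosen after their values were seen. Start regions are from RefSeq (GRCh38.p14), and all 74 members matched its gene table by ID.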

Additional observations from a re-analysis of the deposited data

How the results depend on the processing

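The median difference over the members kept its sign in every setting run, from -0.14 with arrays centred on their medians, where the median of all genes was -0.06, to -0.05 without siChe-1 replicate 2. AATF stayed higher and past the threshold in all of them. Another quantile normalization, the filter on the dimmest 40% of genes, all rows tested, the mean of probe sets, an intensity trend with a robust prior, the replicate block and both stricter thresholds left 0 members past the threshold. Centring gave 1 lower member, MRPS12, in the small subunit. Array weights gave 11 lower and 1 higher members, of which 5 lower and 1 higher were in the large subunit and 6 lower in the small. Leaving out 1 array gave 0 to 5 lower members, 0 to 3 in the large subunit and 0 to 2 in the small, and the highest count came without siChe-1 replicate 1 each time.

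Of the 65 genes of the 5 lists of mitochondrial translation, transcription and their regulators, 4 were lower and 0 higher. This became 7 lower with centring, 2 with all rows tested, 13 lower and 3 higher with array weights, 0 lower at an adjusted p under 0.01 and 2 with a 1.5-fold minimum. Leaving out 1 array gave 0 to 9 lower and 0 to 2 higher. With array weights 1 subunit gene of the respiratory chain list was higher and 1 lower, and 3 cytosolic ribosomal protein genes were higher. Of all genes, 685 passed with the main settings, or 3.72%. The total was 850 with centring, 294 with all rows tested, 261 at the stricter p and 577 with a 1.5-fold minimum. With array weights it was 2865, which is 15.6% of all genes, 8.24% lower. Leaving out 1 array gave 272 to 1565, the last being 8.50% of all genes. The counts of the lists were not tested against these totals.

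The groups share replicate numbers only. Same-numbered arrays had correlations of their deviations of 0.23, 0.06 and -0.04, so the numbers were not taken as pairs, and not every array correlated best with its own number. With the replicate block 0 members passed, the 5 lists gave 7 lower and 1 higher, and 1145 genes passed over the whole table.

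Of the 24 members named by rule, 10 changed sign in some setting, none of them past the threshold there or with all arrays. Over all members, 14 changed sign without siChe-1 replicate 1. Another quantile normalization gave 0.025 for MRPS22 and -0.048 for MRPL13. Centring gave -0.049 for MRPS16, -0.061 for MRPL13, -0.0023 for MRPS15 and -0.014 for MRPS30. Array weights gave -0.017 for MRPS34, -0.075 for MRPL13, -0.025 for MRPS15 and 0.061 for MRPS18A. Leaving out 1 array gave -0.17 to 0.18 for MRPL13, -0.057 to 0.38 for MRPL2, -0.051 to 0.13 for MRPS15, -0.062 to 0.063 for MRPS16, -0.17 to 0.036 for MRPS18A, -0.34 to 0.034 for MRPS18C, -0.12 to 0.071 for MRPS22, -0.019 to 0.12 for MRPS30, -0.046 to 0.15 for MRPS34 and -0.13 to 0.0010 for MRPS7. The causes were not tested. The table has no detection calls, so what dim probe sets can show is unknown.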
